A study of Mus musculus with 16 samples.

Results

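Leukocytes are the cells that invade islets in autoimmune diabetes, and resident macrophages are found in healthy islets too. The question here was how much open chromatin the islet samples of 8 inbred mouse strains showed at 9 genes that mark leukocytes, with NOD, the strain prone to insulitis, set against the others. The 9 genes were Ptprc (CD45, the surface phosphatase of nearly all leukocytes), Cd3e, Cd4 and Cd8a (parts of the T cell receptor complex and its co-receptors), Cd79a (the signalling chain of the B cell receptor), Spi1 (PU.1, the transcription factor of myeloid and B cells), Csf1r (the receptor that macrophages need for survival), Itgam (CD11b) and Adgre1 (F4/80, a macrophage surface protein). ATAC-seq uses a transposase that cuts open chromatin, so a peak marks a stretch of accessible DNA. In cells that do not use a gene, its promoter and enhancers are usually closed and give no peak.

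The samples were islets of 129S1_SvImJ (129), A_J (AJ), C57BL/6J (B6), CAST_EiJ (CAST), NOD_ShiLtJ (NOD), NZO_HlLtJ (NZO), PWK_PhJ (PWK) and WSB_EiJ (WSB) mice, with 1 female and 1 male sample of each strain, 16 in all. No treatment or transgene was given in the labels, and ages were not given in the sources used here. The female and the male were the only 2 samples of a strain, so the spread within a strain includes any effect of sex. Peaks of the 16 sample lists on chromosomes 1 to 19 that overlapped or touched were merged into 347712 regions. A region belonged to a gene if it overlapped the gene body or the 3 kb upstream of it, and 61 of the regions did so for 8 of the 9 genes. No peak of any sample lay in the window of Cd4. Scaled signal is the summit signal of a region divided by the median summit signal of the same sample over the 40940 regions called in all 16 samples, so 1 is the height of a typical shared region and 0 means that no peak was listed there.

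On chromosomes 1 to 19, the shortest list (AJ male) had 77887 peaks and the longest (WSB female) 167051. The lists carry no read totals, so the sequencing depth of a single sample is unknown here. The NZO male stood apart across the genome. Among regions called in 1 sample alone, it had 5516 with a peak at or above the median −log10 p of all lists (3.51), and no other sample had more than 224. Results that rest on the NZO male are therefore given with and without it. Open chromatin at endocrine genes was present in each library, and 11 of 12 endocrine genes, among them Ins1, Ins2 and Pdx1, had a peak within 500 bases of a coding start site in all 16 samples. As this count was equal in all samples, it cannot show a smaller share of endocrine cells. In bulk islets, fewer leukocytes and less open chromatin per leukocyte cannot be told apart.

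Most peaks at the 9 genes were seen in 1 sample. Of the 61 regions, 5 (8.2%) were called in all 16 samples, against 11.8% of all merged regions. A further 5 were called in 12 to 15 samples, 10 in 2 to 7, and 41 (67.2%) in 1 sample alone, against 46.4% of all regions. By position, 41 regions lay in introns, 8 touched coding exons, 4 noncoding exons and 2 a UTR, 4 lay upstream, and 2 held a coding start site. In the 8 strain lists, a peak had to repeat between the female and the male at an irreproducible discovery rate of at most 0.05, and 10 of the 61 regions (16.4%) overlapped one, against 26.3% of all merged regions. The map of peaks by sample shows a few solid rows that run across the samples, and scattered cells elsewhere that gather in the columns of the NZO male and the PWK male.

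**Figure D1:**
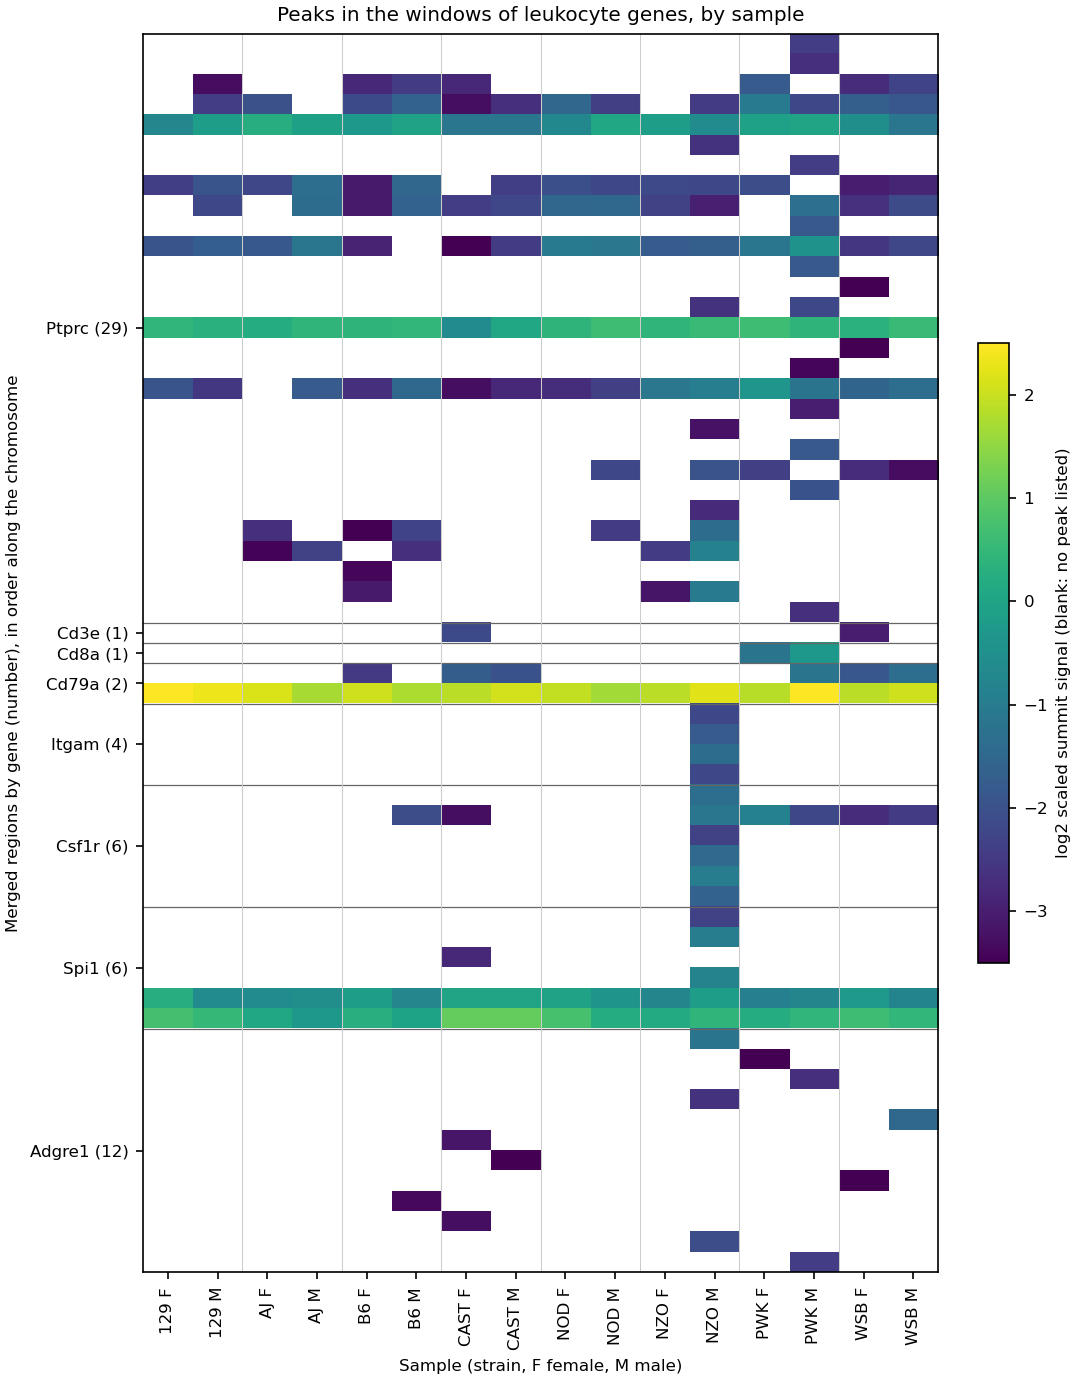
Scaled summit signal (log2, colour) of the 61 regions (rows, grouped by gene with the number of regions) in the 16 samples (columns). The 5 full rows are the regions called in all samples, and Itgam has peaks in the NZO male alone.

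The 5 regions called everywhere were not at the start sites of the leukocyte genes. They were 2 regions deep inside Ptprc, 2 in the body of Spi1 and 1 at the end of Cd79a, and all 5 were in all 8 strain lists. The Cd79a region (mm10, chr7:24901200-24905352) covers the end of the coding sequence of Cd79a and also the start site of its neighbour Arhgef1, so its signal cannot be assigned to the B cell gene. It was the tallest of the 5, with a median of 4.00 and a range from 3.18 in the NOD male to 5.62 in the 129 female. The Spi1 region at chr2:91114949-91115564 lies over the last coding exon and within 3 kb of Mybpc3, while the Spi1 region at chr2:91101428-91101841 is intronic and belongs to no other gene. Neither is near the coding start sites of Spi1, the closer one lying 4648 bases downstream of the nearest.

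In Ptprc, the gene on the minus strand at chr1:138062861-138175708, the shared regions were intronic, at chr1:138085808-138086144 and chr1:138135200-138137167. Their nearer edges were 89090 and 38067 bases from the nearest coding start site. The wider one had a scaled signal of 1.36 and 1.23 in 129, 1.15 and 1.35 in AJ, 1.32 and 1.40 in B6, 0.66 and 1.07 in CAST, 1.31 and 1.55 in NOD, 1.33 and 1.47 in NZO, 1.55 and 1.31 in PWK and 1.26 and 1.47 in WSB (female, then male). Every sample other than the CAST female lay above 1, and the NOD male and the PWK female were highest, at 1.55 each. The other shared region ranged from 0.45 in the CAST female to 1.18 in the AJ female, with a median of 0.85. The bases at the centre of that region and of the intronic Spi1 region are printed here as examples of the open chromatin at leukocyte genes that each islet sample had. The wider Ptprc region, also called in all samples, is not printed. Both printed stretches are GRCm38 sequence, 5′ to 3′ on the strand of the gene, and a PU box core (GAGGAA or its reverse complement TTCCTC) would stand in capitals. Neither stretch holds one.
Ptprc intron, chr1:138085826-138086125, minus strand: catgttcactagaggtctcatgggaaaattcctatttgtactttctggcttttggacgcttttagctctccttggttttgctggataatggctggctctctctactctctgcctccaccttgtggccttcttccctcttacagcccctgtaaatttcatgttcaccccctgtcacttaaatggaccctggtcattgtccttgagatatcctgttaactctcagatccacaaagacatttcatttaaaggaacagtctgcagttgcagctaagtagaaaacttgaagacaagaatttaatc
Spi1 intron, chr2:91101485-91101784, plus strand: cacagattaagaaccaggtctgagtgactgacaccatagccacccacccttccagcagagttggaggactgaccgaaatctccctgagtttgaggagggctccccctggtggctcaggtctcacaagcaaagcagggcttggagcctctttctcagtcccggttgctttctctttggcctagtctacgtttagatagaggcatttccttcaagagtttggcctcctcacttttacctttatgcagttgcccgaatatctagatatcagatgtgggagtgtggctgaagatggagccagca

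The intronic Spi1 region gave scaled signals of 1.17 and 0.65 in 129, 0.66 and 0.69 in AJ, 0.89 and 0.60 in B6, 1.00 and 1.00 in CAST, 0.97 and 0.76 in NOD, 0.59 and 0.91 in NZO, 0.53 and 0.59 in PWK and 0.84 and 0.58 in WSB. The 2 PWK samples were among the lowest and the 129 female was the highest. The Spi1 region over the last coding exon was highest in CAST, at 2.12 and 2.10, and lowest in the AJ male, at 0.82. The other 13 samples lay from 0.99 to 1.69, so both CAST samples lay above each of the others.

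Strain was tested with limma across all 40940 shared regions, of which 35.7% were called at an adjusted p under 0.05 (moderated F test, Benjamini-Hochberg). Of the 5 regions, 1 was called, the exonic Spi1 region (adjusted p = 0.0475). That call was lost in turn without each of the 12 samples of 129, AJ, B6, CAST, NOD and WSB, with the largest limma adjusted p, 0.186, without the CAST male. The remaining 4 had adjusted p from 0.0769 in the Ptprc intron at chr1:138085808 to 0.571 in the Cd79a region. Between the sexes, none of the 5 regions was called, where limma called 0% of all regions at the adjusted threshold and 1621 at an unadjusted p under 0.05.

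Summed over all regions of a gene, Ptprc differed between strains. Strain was called for 29.1% of the 15872 protein-coding genes that had signal in at least 8 samples, and 4 of the 9 genes passed that filter (Ptprc, Spi1, Cd79a and Adgre1). Ptprc was the 1 gene of the 4 that was called (limma moderated F test, adjusted p = 0.00815). Its sum was lowest in CAST, at 1.73 in the female and 2.40 in the male, and highest in PWK, at 4.94 and 6.34. The NZO samples gave 3.69 and 5.75, the NOD samples 3.51 and 4.44, and the other 8 samples lay from 2.67 to 4.27. The PWK values lay above those of every sample outside PWK apart from the NZO male. The call was lost without the CAST female (adjusted p = 0.0597) and with no scaling between samples (adjusted p = 0.191). Between the sexes, limma called 0% of the gene sums (673 at an unadjusted p under 0.05) and none of the 4, of which Ptprc had the smallest unadjusted p, with females lower by a log2 difference of −0.32 ± 0.09 (SE, adjusted p = 0.998). All reads were aligned to the B6 genome, and the part of that in the low CAST and high PWK values was not tested. In the PWK male, 10 of the Ptprc regions were called in no other sample, each with a −log10 p of at most 1.49. That sample also had the lowest median summit signal over the shared regions, 32, by which its values were divided. The part of both in its sum was not tested.

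**Figure D2:**
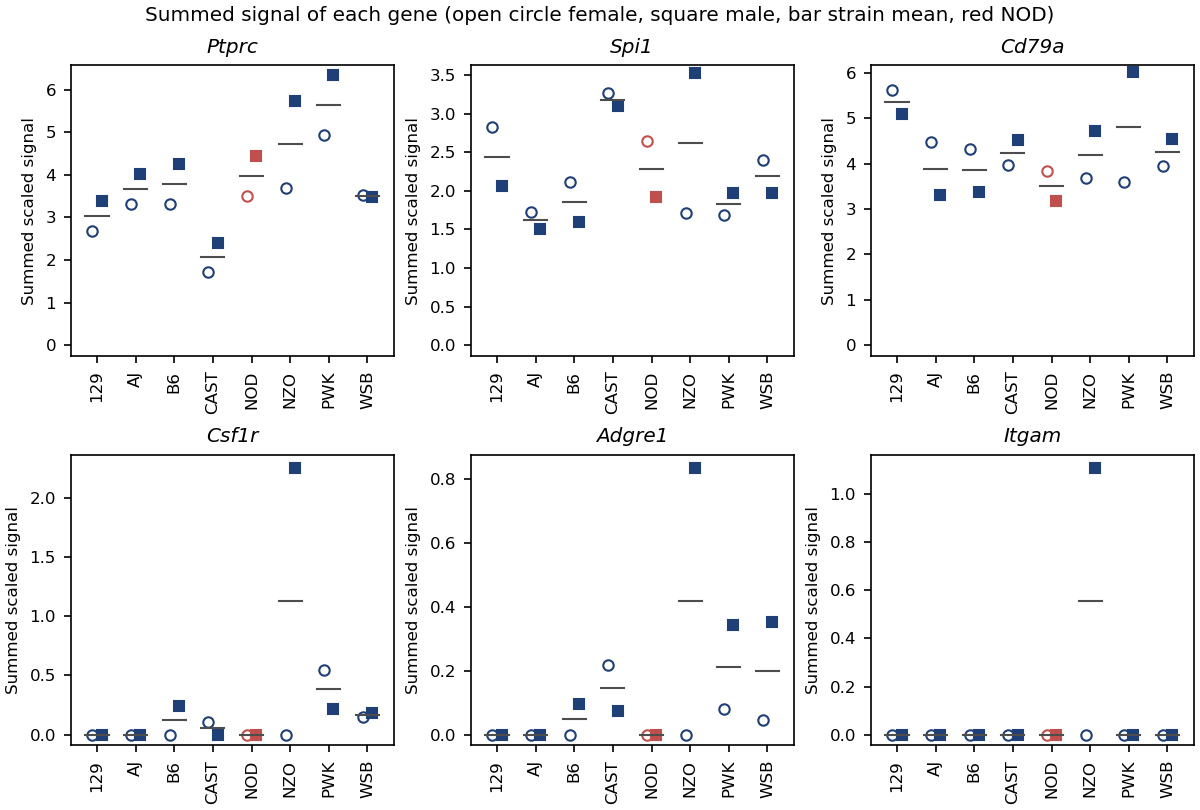
Summed scaled signal (y axis, linear) of 6 genes by strain (x axis), with an open circle for the female, a square for the male and a bar for the mean. Csf1r, Adgre1 and Itgam are at 0 in both NOD samples and highest in the NZO male.

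The sums of Spi1 and Cd79a lay mostly in the shared regions. Spi1 ranged from 1.51 in the AJ male to 3.53 in the NZO male (limma, adjusted p for strain = 0.264). Strain was called for Spi1 without the NZO male (limma, adjusted p = 0.0219), without the NZO female (0.00859), with scaling to the median of all peaks (0.0441) and with no scaling (0.000587). Cd79a ranged from 3.18 in the NOD male to 6.03 in the PWK male, nearly all of it in the region shared with Arhgef1 (adjusted p = 0.558). A second Cd79a region, at chr7:24899213-24899679 over coding sequence, was called in 6 samples, with 0.18 in the B6 female, 0.30 and 0.25 in CAST, 0.44 in the PWK male, and 0.27 and 0.40 in WSB. It was listed in no sample of 129, AJ, NOD or NZO.

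The T cell genes had almost no peaks. They are short, at 23.5 kb (Cd4), 10.9 kb (Cd3e) and 5.7 kb (Cd8a), and peak counts were not adjusted for length. Cd4 had no peak. Cd3e had 1 region, at chr9:44999200-44999399 near the end of the gene, called at 0.23 in the CAST female and 0.12 in the WSB female and in no other sample. Cd8a had 1 region, at chr6:71378337-71378502, called at 0.44 in the PWK female and 0.81 in the PWK male alone, and it was in the PWK strain list. None of these lay at a start site, and neither NOD sample had a peak at any of the 3 genes.

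NOD did not stand out at the 9 genes. The regions of these genes that overlap no other gene summed to 4.48 in the NOD female and 5.20 in the NOD male, a mean of 4.84 ± 0.51 (SD, n = 2 samples). Ptprc gave 3.51 and 4.44 of these sums and Spi1 0.97 and 0.76, so in NOD they describe mainly Ptprc. At Cd3e, Cd4, Cd8a, Itgam, Csf1r and Adgre1 both NOD samples were at 0. By this sum, the means of the other 7 strains ran from 3.61 in CAST to 7.65 in NZO, with a median of 4.75, which put NOD 4th of 8. The NZO mean rests on the male, at 11.02 against 4.28 in the female. The ratio of NOD to the mean of the other strains was 0.919, and 1.02 without the NZO male. No region was called in both NOD samples and at most 1 of the other 14, a pattern that 0.137% of all regions showed. NOD is 1 strain of 8, so a permutation over strains could not reach p = 0.05, and none was run.

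In the fit across regions, 3.02% differed between NOD and the mean of the other strains, 678 higher and 558 lower in NOD. None of the 5 shared regions was among them. Their differences on the log2 scale were 0.11 ± 0.24 (SE) and 0.18 ± 0.19 in Ptprc, 0.20 ± 0.24 and 0.06 ± 0.19 in Spi1, and −0.26 ± 0.21 in the Cd79a region, with limma adjusted p from 0.521 to 0.876. In the fit across gene sums, 3.19% of genes were called, 192 higher and 315 lower in NOD, and the median of all genes tested was −0.13. None of the 4 leukocyte genes tested was called. Ptprc differed by 0.13 ± 0.13 (adjusted p = 0.589), Spi1 by 0.05 ± 0.23 (0.914), Cd79a by −0.28 ± 0.20 (0.425) and Adgre1 by −0.50 ± 0.38 (0.459), with limma. These are differences of log2(sum + 0.25), which understates changes of low genes. Relative to the median of all genes, Ptprc and Spi1 lay slightly higher in NOD and Cd79a lower, in each case within 2 standard errors. Adgre1 was at 0 in both NOD samples and passed the filter only through 8 samples of other strains. Its difference could therefore only be negative and is not read as lower signal in NOD.

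The other leukocyte lists were examined in the same fit, with the NZO male included. They were not fitted without it, so the part of that sample in these differences was not tested. A gene needed signal in at least 8 samples, so a gene open in NOD alone could not be tested. By contrast, 5 genes listed at 0 in both NOD samples (Il1b, S100a9, Flt3, Irf8 and Tcf7) passed through the other strains. As with Adgre1, their differences could only be negative and are not read as lower signal in NOD. They are kept in the counts and medians that follow, which describe the tested genes only. Of 89 further genes in 6 lists, 54 were tested. None of them was called in either direction by limma, and 17 had an unadjusted p under 0.05 (3 higher and 14 lower in NOD), against 3487 of all genes tested (1264 higher and 2223 lower). Their median difference was −0.19. Of the macrophage and dendritic cell list, 14 of 22 genes were tested, from −1.65 ± 0.45 for Flt3, the growth factor receptor of dendritic cell precursors (limma, adjusted p = 0.0781), to 0.42 ± 0.53 for Cd163, a scavenger receptor of macrophages. The lowest of 12 T cell genes was Tcf7, a T cell transcription factor, at −0.97 ± 0.29, and the highest was Themis, a regulator of thymocyte signalling, at 0.52 ± 0.21.

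Among 9 B cell genes, the values ran from −0.75 ± 0.22 for Cd72, a B cell co-receptor, to 0.31 ± 0.34 for Cr2, a complement receptor. The 12 pan-leukocyte genes ran from −1.31 ± 0.42 for Itgb2, the shared chain of leukocyte integrins, to 0.45 ± 0.25 for Plek. Of the NK cell and neutrophil list, only S100a9, a neutrophil calcium-binding protein, and Klrb1c, an NK cell receptor, could be tested, at −0.81 ± 0.26 and 0.51 ± 0.22. S100a9 was at 0 in both NOD samples, so its difference could only be negative. The 5 genes of antigen presentation lay between −0.26 ± 0.34 for H2-Ab1, a class II chain, and 0.40 ± 0.29 for Cd74, the invariant chain. The difference of every one of these genes failed the adjusted threshold, as the plot of the contrast by list shows.

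**Figure D3:**
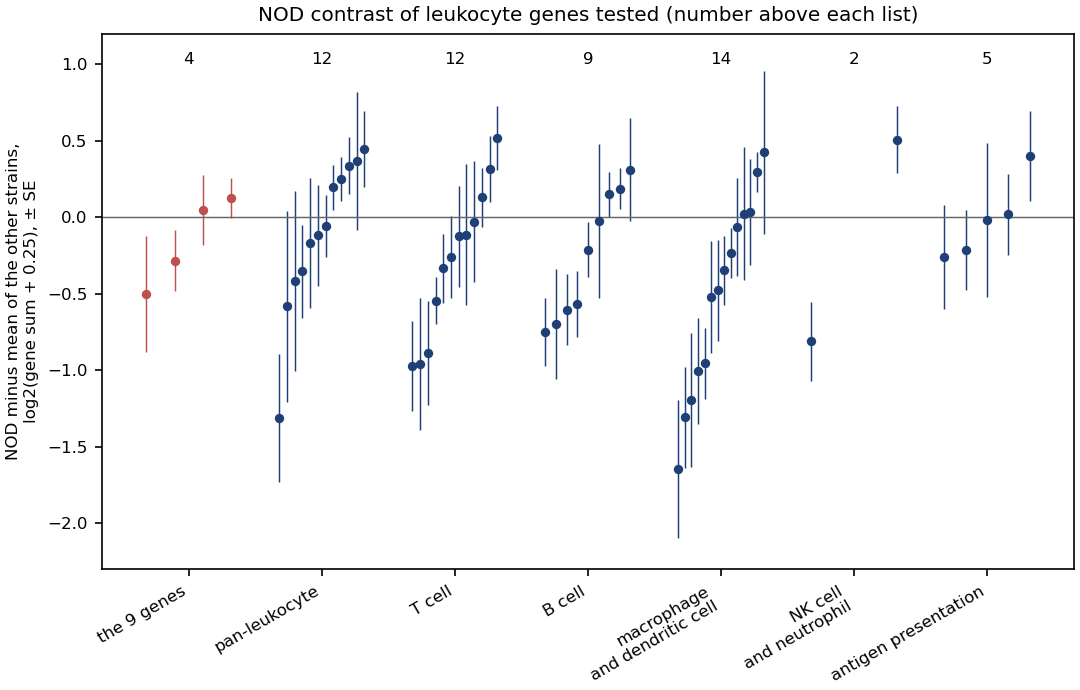
Difference between NOD and the mean of the other strains in log2(gene sum + 0.25), with its standard error, for each tested gene of the 9 (red) and of 6 further lists (blue). Values run from −1.65 for Flt3, which was at 0 in both NOD samples, to 0.52 for Themis, and none passed the adjusted threshold.

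The sample with the most peaks at leukocyte genes was the NZO male. It had 34 of the 61 regions, the PWK male 25, and the other 14 samples 8 to 18, with 10 and 12 in NOD. Per 100000 peaks of a list these are 24.1 in the NZO male, 17.1 in the PWK male, and 8.84 to 12.9 in the others. Of the 41 regions called in 1 sample, 18 were of the NZO male, 12 of the PWK male and none of NOD. The NZO male alone had 29.5% of the 61 regions, where it alone had 9.51% of all regions. For the PWK male the shares were 19.7% and 10.9%. Without the NZO male, 43 regions would remain, and 30 without both.

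These peaks differed in where they fell. The 12 regions of the PWK male were 10 in Ptprc and 2 in Adgre1. The 18 regions of the NZO male were spread over 5 genes, with 5 in Csf1r, 4 in Itgam and 3 each in Ptprc, Spi1 and Adgre1, which are genes of myeloid cells or of leukocytes in general. They were low, with a scaled signal from 0.11 to 0.56, and a −log10 p from 0.57 to 4.07, of which 1 was at or above 3.51. Both males had low median summit signals over the shared regions, 55 in the NZO male and 32 in the PWK male against 55 to 136 in the others, and the part of this in the scaled values was not tested.

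Itgam had 4 peaks, all in the NZO male, at 0.22, 0.29, 0.38 and 0.22, and no other sample had a peak in its window. All 4 were intronic and also lay in Gm49368, an annotated gene that overlaps Itgam. In Spi1, the NZO male alone had peaks at −991 (0.20), 638 (0.51) and 4085 bases (0.56) from the nearest coding start site, negative being upstream, all in the window of no other gene. In Adgre1, it had a peak of 57 bases that ends 49 bases before a coding start site (0.44), and 2 further ones in the gene (0.16 and 0.24). Of these sites, 5 are printed here, namely the downstream Spi1 sites, the site next to the Adgre1 start, and the Itgam and Adgre1 sites that hold GAGGAAGT on either strand. GAGGAA is the core of the PU box, the short DNA word that PU.1 and related ETS factors bind. The sequences are GRCm38 sequence on the plus strand, the strand of all 3 genes, with the core in capitals.
Spi1, chr2:91083028-91083160: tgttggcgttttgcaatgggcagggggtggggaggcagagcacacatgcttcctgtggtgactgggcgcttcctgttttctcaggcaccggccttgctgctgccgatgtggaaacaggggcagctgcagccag
Spi1, chr2:91086475-91086591: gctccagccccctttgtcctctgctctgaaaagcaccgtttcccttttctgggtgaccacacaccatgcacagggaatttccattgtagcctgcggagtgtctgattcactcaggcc
Itgam, chr7:128089279-128089366: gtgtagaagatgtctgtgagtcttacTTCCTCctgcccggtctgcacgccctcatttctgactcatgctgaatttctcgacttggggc
Adgre1, chr17:57358586-57358642: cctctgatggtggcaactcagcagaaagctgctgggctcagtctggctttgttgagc
Adgre1, chr17:57473050-57473349: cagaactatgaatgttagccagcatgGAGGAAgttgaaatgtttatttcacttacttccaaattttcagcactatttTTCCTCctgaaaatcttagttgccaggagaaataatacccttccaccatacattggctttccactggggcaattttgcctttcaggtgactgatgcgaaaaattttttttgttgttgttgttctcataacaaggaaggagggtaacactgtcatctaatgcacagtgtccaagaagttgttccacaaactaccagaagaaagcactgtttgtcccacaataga

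The longer word GAGGAAGT, searched on both strands in the central 200 bases of each region, was more frequent in the peaks of the NZO male. It was in 1.79% of all merged regions and in 2 of the 18 leukocyte gene regions of the NZO male, both of them in Itgam. One is the printed Itgam site, and at the other, chr7:128065707-128065748, the word lies in the flanking bases and not in the peak of 42 bases. The GAGGAAgt of the printed Adgre1 stretch lies outside the searched centre of its region and is not counted. Among the 33071 regions of the genome called in the NZO male alone, 5.15% held it (95% exact interval 4.91 to 5.39%, counting error only). In the other 15 samples, the share among regions called in that sample alone ran from 0.835% in the AJ male to 1.55% in the NOD male, with 1.41% of 38059 regions in the PWK male (95% exact interval 1.29 to 1.53%). With peaks at or above the stricter threshold the share in the NZO male was 7.02% of 5516 regions, against 1.27 to 1.9% in the 3 other samples with at least 100 such regions. A match is a word in the sequence and does not show binding.

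Among the 9 genes, Csf1r had the most regions called in the NZO male alone. Its annotated start at chr18:61100598, upstream of the coding start site, lies in a region called in 7 samples, with 0.24 in the B6 male, 0.10 in the CAST female, 0.45 in the NZO male, 0.55 and 0.22 in PWK and 0.15 and 0.18 in WSB. Neither NOD sample nor any sample of 129 or AJ had it. The region at the coding start site (chr18:61105400-61105599) was called in the NZO male alone, at 0.20. So were 4 others, the tallest of them an intronic one at chr18:61108548-61108781 with 0.51 and the highest −log10 p of the 18 (4.07). The sum over Csf1r was 2.25 in the NZO male, 0 in the NZO female and at most 0.55, in the PWK female, elsewhere.

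**Figure D4:**
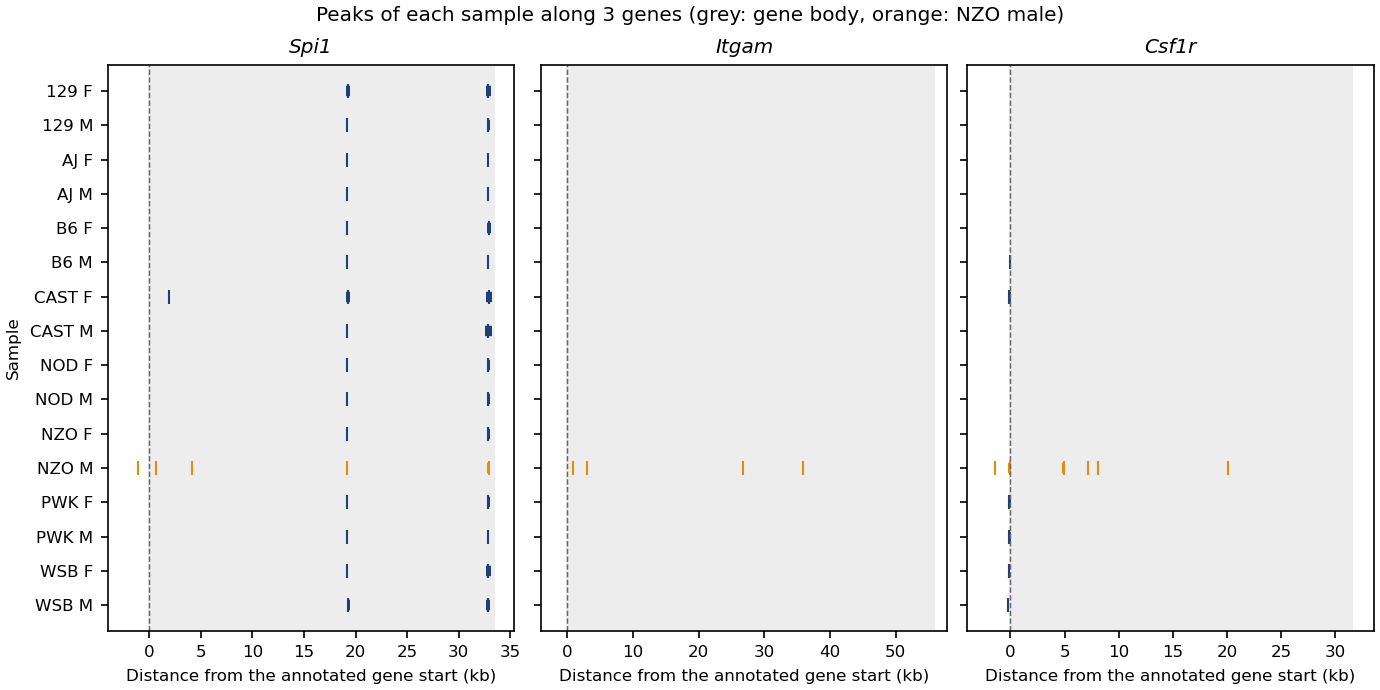
Peaks of each sample (rows) along Spi1, Itgam and Csf1r by distance from the annotated start of the gene (x axis, kb), with the gene body in grey and the NZO male in orange. The marks at 2 places of Spi1 are in all samples, and the NZO male has further marks in all 3 genes.

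At start sites, the NZO male was again the exception. A peak within 500 bases of a coding start site was listed for 3 of the 9 genes in the NZO male (Ptprc, Csf1r and Adgre1), for 1 in the B6 female (Ptprc), and for none in the other 14 samples, both NOD samples included. For 6 of the 9 genes no sample had one, against 23.8% of all protein-coding genes. The region over the Ptprc start, at chr1:138174200-138175399, was called at 0.49 in the NZO male, 0.11 in the NZO female and 0.12 in the B6 female. The peak of the NZO female in it lay 1309 to 1509 bases from the annotated gene start, with a −log10 p of 0.50. It was not within 500 bases of a coding start site and joined the region through the wider peak of the NZO male. The merged region was the only one of the 61 called in both NZO samples and at most 1 other sample, a pattern that 0.588% of all regions showed.

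This measure, chosen after the data were seen, was then applied to the other leukocyte genes. Of the 85 genes of the 6 lists that were matched on chromosomes 1 to 19, the NZO male had a start-site peak at 43, and the other 15 samples at 10 to 25, with 17 and 18 in NOD and 21 in the NZO female. Macrophage and dendritic cell genes gave 15 of 21 in the NZO male and 1 to 7 elsewhere, pan-leukocyte genes 11 of 16 against 3 to 7, and T cell genes 6 of 19 against 0 to 2. B cell genes gave 5 of 12, within the 1 to 5 of the other samples, and NK cell and neutrophil genes 1 of 12 against 0. At 15 of the 85 genes the start-site peak was in the NZO male alone, among them Itgax, Cx3cr1, Lyz2 and Tyrobp of myeloid cells and Cd2, Cd28 and Il7r of T cells. At this threshold no other sample was alone at any of the 85. Across all 20807 protein-coding genes, 1.83% had a start-site peak in the NZO male alone, 380 genes, against 8 to 148 in each other sample. With the stricter peak threshold, the NZO male was alone at 9 of the 85 and at 303 of all genes, and with equal numbers of peaks at 9 and 304. Other samples were then alone at 3 of the 85 in sum with the stricter threshold (2 of them in the WSB female) and at 2 with equal numbers of peaks.

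**Figure D5:**
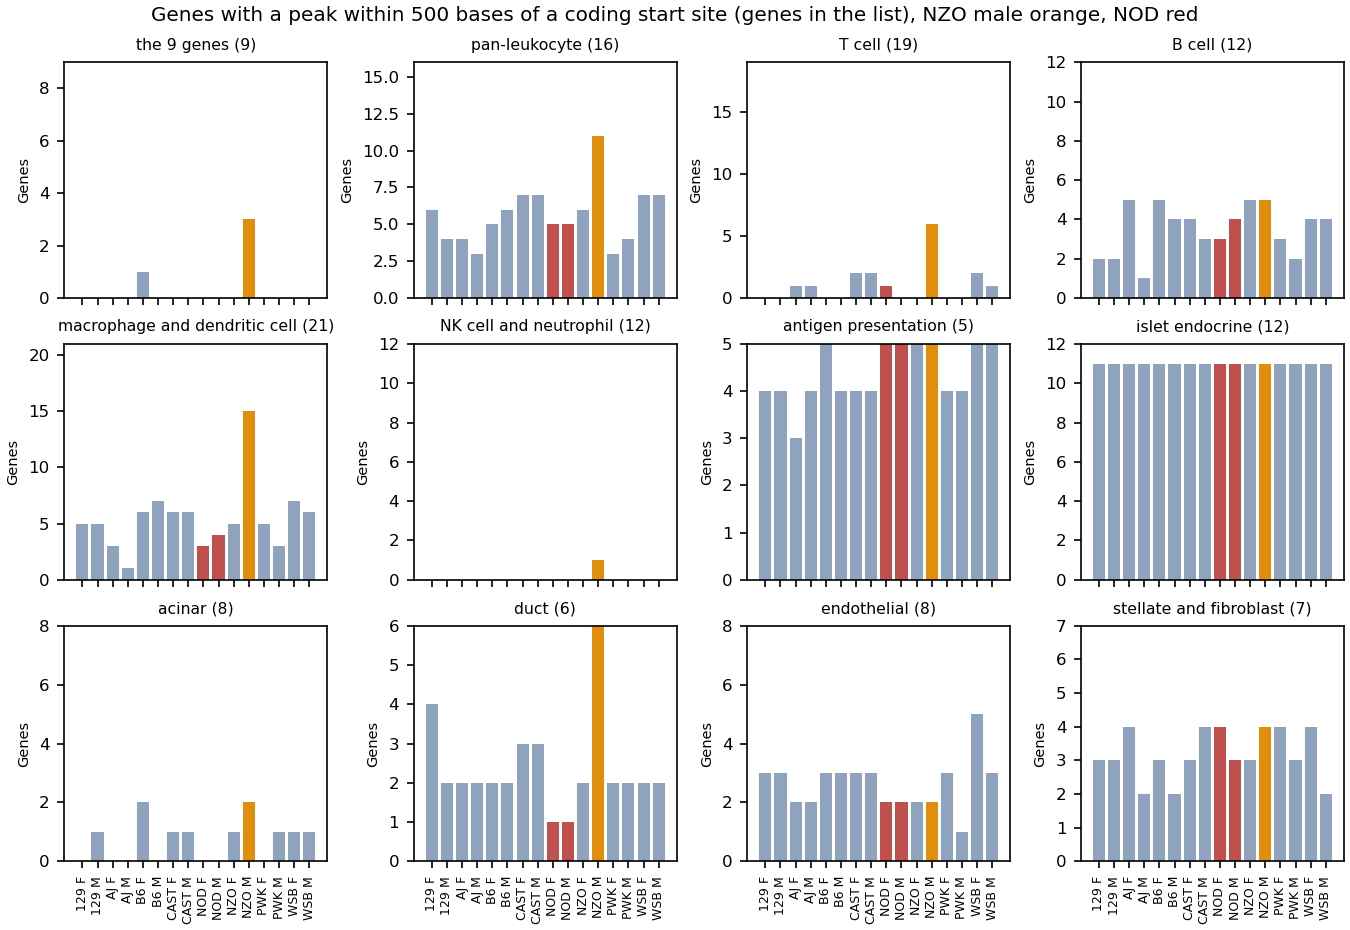
Number of genes with a peak within 500 bases of a coding start site (y axis, up to the number of genes in the list) in each of the 16 samples (x axis), for the 9 genes, 6 leukocyte lists and 5 lists of other pancreatic cell types. The NZO male (orange) has 15 of 21 macrophage and dendritic cell genes and 6 of 6 duct genes, and the endocrine list is at 11 of 12 in each sample.

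Genes of other cell types moved with it. All 6 duct genes had a start-site peak in the NZO male, against 1 to 4 in the other samples, and Krt19 and Sox9, defining genes of duct cells, had one there alone. Acinar genes gave 2 of 8, as in the B6 female, Cela1 in the NZO male alone, Schwann cell genes 2 of 4 against 1 to 2, endothelial genes 2 of 8 within the 1 to 5 of the others, and stellate and fibroblast genes 4 of 7 within 2 to 4. By summed scaled signal, the NZO male was the highest of the 16 samples for the duct list (19.5, next 9.26), the acinar list (3.47, next 1.92) and the Schwann cell list (8.25, next 6.69). The endocrine start-site counts were equal in all samples and could not show a smaller share of endocrine cells. The endocrine sum was 34.8 in the NZO male and 34.1 to 49.0 in the others. Of 12 endocrine genes, 4 were lower in the NZO male than in every other sample, namely Ins1 (1.45, next 2.31), Gcg (1.98, next 2.66), Pax6 (5.49, next 6.69) and Neurod1 (2.71, next 3.20), and 2 were higher, Nkx6-1 and Mafa. The share of all protein-coding genes with a start-site peak was 66.7% in the NZO male, inside the range of 54.1 to 68.0% over the 16 samples. The part of duct, acinar and Schwann cells, of the share of endocrine cells, of mouse-to-mouse differences and of sample preparation in the peaks of the NZO male was not tested, and with 1 male sample the library and the animals cannot be told apart.

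The number of the 61 regions called in a sample rose with the length of its list (Pearson r = 0.68, Spearman rank correlation 0.90 over 16 samples, each sample sharing its depth between both measures). The 5 genes whose sums were most like the total over the 9 genes, among 12974 genes with signal in all samples and outside the lists, were Ildr1, Mroh2a, Ugt1a1, Crim1 and Rai14. Their Pearson r over the 16 samples was 0.88 to 0.89 on the log2 scale.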

How the data were processed

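The 9 genes, the gene lists and the tests were chosen with earlier results of these data known. According to the study's methods, reads were trimmed by the authors with cutadapt 2.0 and aligned to mm10 with bowtie2 2.3.4.1, mitochondrial and duplicate reads were removed (Picard 2.9.2), and each sample's peaks were called by MOSAiCS, controlling the false discovery rate at 0.05. Versions were taken from the submitters' processing notes. The deposited signal is a whole-number summit signal that was not scaled to depth, and the deposited mean signal served as an alternative. The deposited −log10 p-value set a stricter threshold, the median over all lists (3.51). The deposited strain lists give an irreproducible discovery rate on a −log10 scale, and peaks up to 0.05 were kept.

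Genes came from GENCODE M21 on GRCm38, the assembly of mm10. The last peak base of each chromosome lay within the reference length. For regions called in all 16 samples, log2(signal + 1) was centred on the sample median. Gene sums of scaled signal were tested as log2(sum + 0.25) where at least 8 samples were above 0. Models of strain and sex were fitted with limma 3.58.1 (R 4.3.3), with Benjamini-Hochberg adjustment over all features, and were tested on simulated data. NOD was compared with the mean of the other 7 strains. The 2 samples of a strain are a female and a male, how many mice gave each sample was not given in the sources used here, and p-values measure the spread between these samples. Named genes were all 9, and in each further list the genes with the lowest and the highest NOD difference. The start-site counts and the word search were added after the data were seen, and the genes named from them were chosen after their values were seen.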

Additional observations from a re-analysis of the deposited data

Results flagged for a closer look

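Sums of the 9 genes, the 5 shared regions, the number of regions called and the total were screened for a sample far from the others, among the 8 females and among the 8 males, in 28 groups of 8. A sample was set apart if its gap to the nearest other sample, divided by the range of the group, exceeded Dixon's 95% critical value. This happened 12 times. Chance flags about 1 in 20 groups only where values spread normally. Many of these genes had no peak in most samples. For Cd8a and Itgam, a lone sample with a peak is set apart at any height. The Cd79a sum and its region shared with Arhgef1 were set apart on the same value. The 12 flags therefore cannot be compared with the chance rate.

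The NZO male was set apart among males for Itgam (1.11, next 0), Csf1r (2.25, next 0.24) and Adgre1 (0.84, next 0.35). These genes mark myeloid cells. Cd8a was set apart in both PWK samples, at 0.44 in the female and 0.81 in the male, with 0 in each of the others. The PWK female was also apart for Csf1r (0.55, next 0.15) and for the total over regions of 1 gene alone (6.53, next 4.84). The CAST female was apart for Adgre1 (0.22, next 0.08) and, at the low end, for the wider Ptprc region (0.66, next 1.15), and the CAST male for the exonic Spi1 region (2.10, next 1.41). The 129 female was apart for Cd79a, at 5.62 both for the sum and for the region shared with Arhgef1 (next 4.48). No NOD sample was set apart.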

How the results depend on the processing

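No shared region or gene sum of the 9 genes was called between NOD and the other strains, or between the sexes, under any alternative run or without any 1 sample, and no region was ever called in both NOD samples and at most 1 other. Closest was an intronic Ptprc region (chr1:138130200-138130574) with no peak in the B6 male, whose NOD difference was 0.90 ± 0.23 without that sample (SE, limma adjusted p = 0.0592). Across all regions, the NOD calls ranged from 160 with no scaling to 2780 with regions called in at least 12 samples, and were 50 without the NOD female and 4343 without the NZO female. For gene sums they were 39 and 3369 without these samples, against 507. Scaled to the median of all peaks, 184 regions were higher and 2489 lower in NOD, and the median difference of all regions moved from 0.04 to −0.28 (no scaling 0.24). The ratio of summed signal, NOD over the others, ran from 0.714 with that scaling to 1.08 with none, and from 0.852 to 1.02 without 1 sample. The number of regions at the 9 genes fell to 16 with the stricter peak threshold, 25 with equal numbers of peaks and, in an alternative added after the data were seen, 30 without the NZO male and the PWK male. Strain was called in 0 of the regions tested with the stricter threshold, the mean signal or regions called in at least 12 samples, in 2 with the other scaling or none, and in 0 to 2 without 1 sample (2 without the NZO female). For gene sums it was called in 2 with the other scaling, no scaling or no filter, and in 0 to 3 without 1 sample (0 without the CAST female, 2 without the NZO male, 3 without the NZO female). Leukocyte genes with a start-site peak in the NZO male alone, an alternative chosen after the data were seen, numbered 9 with the stricter threshold and 9 with equal numbers of peaks. The cause of these changes was not tested.

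Uncalled NOD differences changed sign with scaling to the median of all peaks, to −0.21 and −0.14 for the Ptprc regions, −0.12 and −0.25 for the Spi1 regions, −0.19 for the Ptprc sum and −0.27 for the Spi1 sum. Without 1 sample, they ran from −0.29 to 0.54 for the narrower Ptprc region, −0.15 to 0.31 for the exonic Spi1 region and −0.14 to 0.27 for the Spi1 sum. No paired analysis was possible because the labels give no replicate numbers. Sex, which links the females and the males across strains, was a term of the model. Read depth of single samples is unknown, and a listed 0 says only that no peak passed the authors' threshold.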
